A study of Mus musculus with 4 samples.

Results

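The region described here is the Myc gene and the gene-poor domain downstream of it, taken as positions 61500000 to 63800000 of chromosome 15 (mm9), a span of 2.3 Mb. Its members are all listed CUT&RUN peaks whose centre lies in that span, so they were chosen by position alone. There were 10 of them among 10737 peaks in all: 5 of the 7327 anti-GFP peaks and 5 of the 3410 anti-Myb peaks. Distances are given from the start of Myc on the plus strand, placed at about 61817000. This position is approximate, so distances close to the gene are good to about a kilobase.

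Both lists came from MEL cells, a mouse erythroleukemia line. The anti-GFP library was made from MEL cells labelled Myb_GFP, read here as cells carrying GFP-tagged Myb, and the anti-Myb library from MEL cells without that label. The labels name no other allele or treatment, and do not say whether the Myb_GFP cells were 1 clone or a pool. A second anti-GFP library from MEL cells without the Myb_GFP label, and a library labelled IgRab with no antibody, were not analysed here. Each group had 1 library, so there was no replicate error, no test between libraries was made, and the intervals below cover the counting of peaks only. The lists hold positions without heights or read counts. The depth is unknown, and a site missing from a list is not shown to be unbound.

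MYC is a transcription factor that drives growth and division, and MYB is a transcription factor of immature blood cells. In blood cells Myc is known to be controlled from enhancers far downstream, beyond the neighbouring long non-coding RNA gene Pvt1. CUT&RUN cuts and sequences the DNA beside an antibody-bound protein, and a peak marks a site where such fragments pile up. In the RefSeq gene order (GRCm38.p6), Pvt1 is the next gene after Myc. The next protein-coding gene is Gsdmc, the first of 4 protein-coding genes of the Gsdmc group of pore-forming gasdermins, followed by Cyrib and Asap1. The 16 entries between Myc and Gsdmc comprise 9 long non-coding RNAs, 5 pseudogenes and 2 small RNA genes. No mm9 annotation was used, so no peak is placed inside or outside Pvt1 or another gene, or matched to a named enhancer element.

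The peaks fell into 3 separate places. A single anti-GFP peak lay just upstream of the Myc start, 3 anti-Myb peaks lay 174 to 236 kb downstream, and a distal set of 4 anti-GFP and 2 anti-Myb peaks lay 1.66 to 1.75 Mb downstream. The antibodies shared a region only in the distal set. Of 24 consecutive bins of 100 kb counted from the Myc start, 19 held no peak of either list. The outermost bins reach past the domain borders. The same count was not made on the rest of chromosome 15, so it is not read as a trait of the domain.

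**Figure D1:**
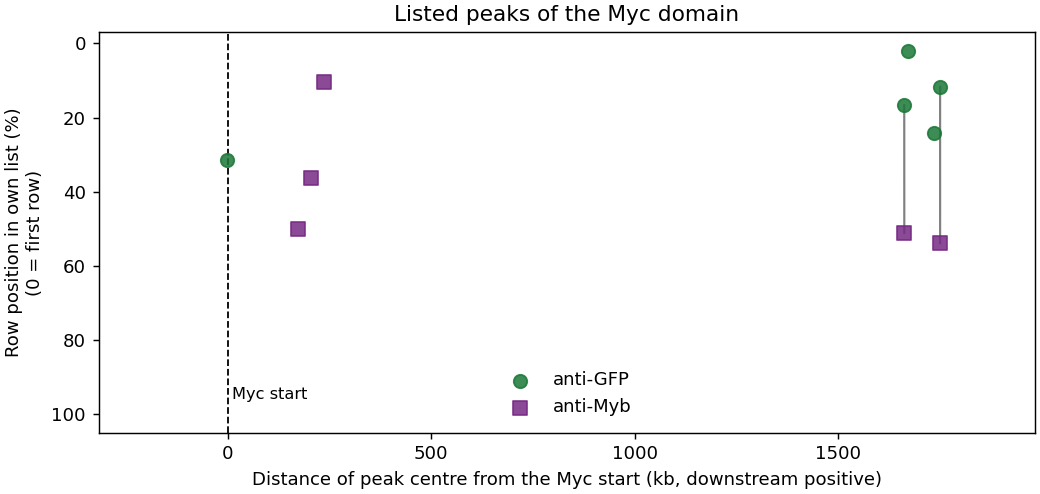
Each point is a listed peak of the Myc domain, plotted by the distance of its centre from the Myc start in kb (x) and by its row position in its own list in percent, with the first row at the top (y). Circles are anti-GFP peaks, squares anti-Myb peaks, and grey lines join overlapping peaks. Both overlapping pairs sit at 1.66 and 1.75 Mb, and the 3 anti-Myb peaks at 174 to 236 kb have no anti-GFP peak beside them.

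At the Myc gene itself the lists differed. The anti-GFP peak at 61815610 to 61815946 had its centre 1.22 kb upstream of the Myc start and its nearer edge 1.05 kb upstream. Its row was 2314, or 31.6% of the way down the anti-GFP list, which made it the latest of the 5 anti-GFP members. No anti-Myb peak was listed within 100 kb of the start on either side. The nearest anti-Myb centre to this anti-GFP peak was 175 kb away, downstream. On the rest of chromosome 15, 33.2% of anti-GFP peaks (107 of 322) had no anti-Myb centre within 100 kb. Upstream of this peak no peak of either list lay within the domain.

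The 3 anti-Myb peaks nearest to Myc had no anti-GFP peak beside them. The first, at 61990508 to 61990820, was 174 kb from the Myc start and was row 1705 of the anti-Myb list. The second, at 62022380 to 62022692, was 206 kb from the start and was row 1236. The third, at 62052632 to 62052944, was 236 kb from the start and was row 352, the earliest anti-Myb row in the domain. The peaks were 31.9 kb and 30.3 kb apart, and in order from Myc they stood at 50%, 36.2% and 10.3% of the way down the list. A set of 3 peaks is too small to show a regular spacing or a trend with distance.

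For each of the 3 the nearest anti-GFP centre was the peak at the Myc start, 175, 207 and 237 kb away. On the rest of chromosome 15, 12.5% of anti-Myb peaks (19 of 152) had no anti-GFP centre within 100 kb, and 7 of the 152 were farther from one than the first of the 3 peaks. A run of 3 anti-Myb centres within 62.1 kb, the width of this set, was begun by 9.87% of anti-Myb peaks on the rest of the chromosome (15 of 152). In none of those 15 runs were all 3 peaks more than 100 kb from the nearest anti-GFP centre. In the whole list this held for 12 of 324 such runs, the Myc run included. The width and the distance used here were chosen after the positions were seen, and runs can share peaks.

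The distal set spanned 88.1 kb between its outer anti-GFP centres and held most of the domain's anti-GFP peaks. Its first anti-GFP peak, at 63479569 to 63479905, was 1.66 Mb from the Myc start and was row 1223, 16.7% of the way down its list. The second, at 63489588 to 63489924, lay 10.02 kb farther on and was row 150, 2.05% of the way down, the earliest row of the domain in either list. It was the 11th earliest of the 327 anti-GFP peaks on chromosome 15. It overlapped no anti-Myb peak, and the nearest anti-Myb centre was 9.88 kb away.

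The third anti-GFP peak of the set, at 63552932 to 63553268, was row 1776 (24.2%). It too was unshared, with the nearest anti-Myb centre 14.8 kb away. The last, at 63567674 to 63568010, was 1.75 Mb from the Myc start and was row 862 (11.8%). The 4 peaks thus formed 2 groups, 63.3 kb apart, and each group held 1 shared and 1 unshared anti-GFP peak. On the rest of chromosome 15, 7.14% of anti-GFP peaks (23 of 322) began a stretch of the same width with at least 4 anti-GFP centres. None of those 23 stretches held at least 2 shared anti-GFP peaks, as this one did, and in the whole list 23 of 552 did, this one included. The width and the number of peaks were again taken from the set itself, and stretches can share peaks.

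Regions listed with both antibodies were found only in the distal set. In the first pair the anti-Myb peak at 63479724 to 63480036 (row 1743, 51.1% of the way down) overlapped its anti-GFP partner by 182 bp, with centres 143 bp apart. In the second pair the anti-Myb peak at 63567731 to 63568043 (row 1837, 53.9%) overlapped its partner by 280 bp, with centres 45 bp apart. In both pairs the anti-Myb centre lay on the far side from Myc. Pairs on the rest of chromosome 15 lay in both orientations, so this is not read as a trait of the domain. Centres of the 29 pairs on the rest of chromosome 15 were a median of 166 bp apart (19 to 307 bp). Both pairs of the domain were closer than that median. Of the 29, 13 were closer than the first pair and 4 were closer than the second. The 2 pairs lay 88.0 kb from each other. Of the 28 distances between neighbouring pairs on the rest of the chromosome, 1 was within 100 kb, and their median was 1.35 Mb. The 100 kb limit was chosen after the positions were seen, and 1 of the 28 distances spans the Myc domain itself.

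**Figure D2:**
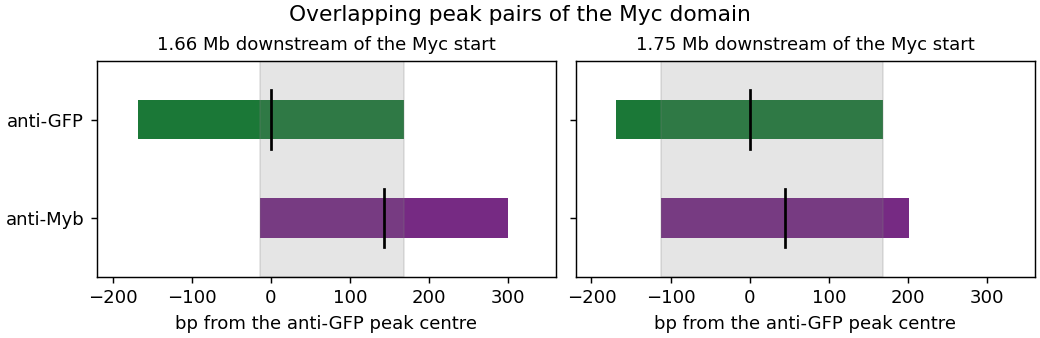
The 2 overlapping pairs drawn to scale, with x in bp from the centre of the anti-GFP peak. Bars are listed peaks (anti-GFP 337 bp wide, anti-Myb 313 bp wide), black ticks are their centres and the grey band is the shared part, 182 bp on the left and 280 bp on the right.

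The shared peaks were 2 of 5 in each list, or 40% with an exact 95% binomial (Clopper-Pearson) interval of 5.27% to 85.3%. The same count on the rest of chromosome 15 was 9.01% of anti-GFP peaks (29 of 322) and 19.1% of anti-Myb peaks (29 of 152). Both values lie inside the interval of the domain, which covers the counting of peaks only, and a share of 5 peaks is too imprecise to compare. The same 2 pairs give the share in both lists, so the comparisons are not separate. Of the 5 anti-GFP peaks 3 had an anti-Myb centre within 10 kb, against 21.1% on the rest of the chromosome. The anti-GFP peak at row 150 passed only narrowly, at 9.88 kb, and its nearest anti-Myb peak was also the partner of the row 1223 peak. Conversely, 2 of the 5 anti-Myb peaks had an anti-GFP centre that close, and 42.1% did on the rest.

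Both antibodies listed the same number of peaks in the domain, 2.17 per Mb (exact 95% Poisson interval 0.706 to 5.07). This interval treats peaks as independent, while they lay in clusters, so it understates the uncertainty. On the remaining 97.7 Mb of chromosome 15 between the outermost peaks, the densities were 3.29 per Mb for anti-GFP and 1.56 per Mb for anti-Myb, both within that interval. The anti-GFP density was 0.660 times that of the rest, but 1.07 times when only the first 50% of each list was counted, so it has no firm direction. Chromosome 15 held 43 full windows of 2.3 Mb aligned to the domain. Of the other 42 windows, 25 held fewer anti-GFP peaks than the domain, 1 the same number and 16 more, with a median of 3.5 and a highest count of 41. For anti-Myb, 29 windows held fewer, 2 the same number and 11 more, with a median of 2 and a highest count of 16. In both lists the Myc domain thus stood above the median window and far below the fullest one.

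**Figure D3:**
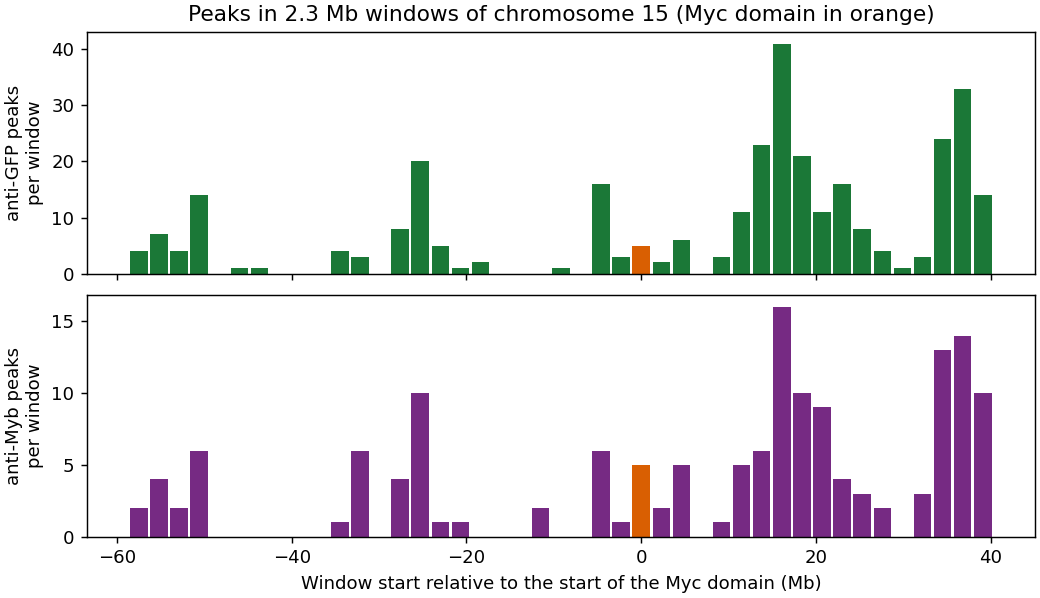
Bars are the numbers of anti-GFP (upper) and anti-Myb (lower) peaks in 43 consecutive 2.3 Mb windows of chromosome 15, placed by their start relative to the Myc domain in Mb (x). The orange bar is the Myc domain, with 5 peaks in each list, far below the highest windows at 41 and 16.

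Between the last of the 3 anti-Myb peaks and the distal set, neither list had a peak for 1.43 Mb, which is 62.0% of the domain. This was the 14th longest of the 483 distances between neighbouring centres on chromosome 15, whose median was 36.1 kb. The anti-GFP peak at Myc was itself preceded by an empty stretch of 2.34 Mb, the 11th longest. That stretch ended upstream in an overlapping pair with centres 58 bp apart, at 59479748 to 59480084 (anti-GFP, row 1681) and 59479818 to 59480130 (anti-Myb, row 2206), which lies 2.02 Mb outside the domain border. Beyond the other border the next peaks were an anti-GFP peak at 64135311 to 64135647 (row 785) and an anti-Myb peak at 64210101 to 64210413 (row 1988), 335 kb and 410 kb outside it. The domain borders thus split no group of neighbouring peaks.

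**Figure D4:**
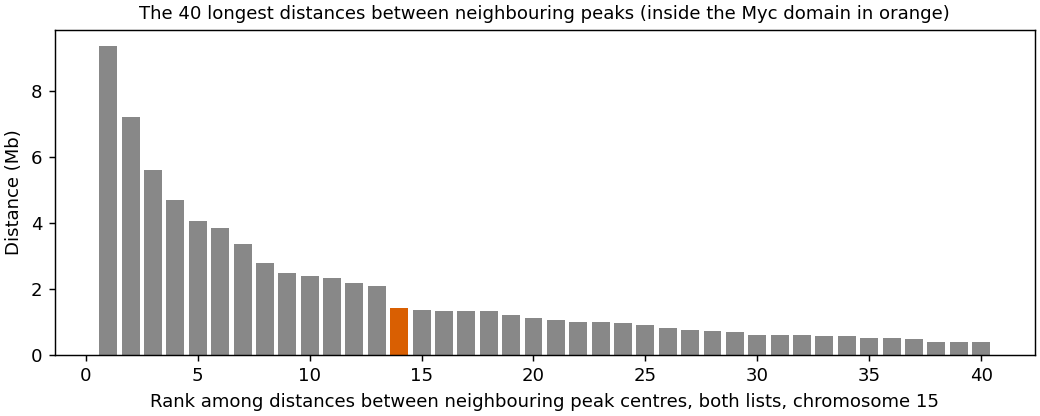
Bars are the 40 longest of 483 distances between neighbouring peak centres of both lists on chromosome 15, in Mb and in order of length. The orange bar, 14th, is the 1.43 Mb stretch between the 3 anti-Myb peaks nearest to Myc and the distal set.

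The lists carry a row order and a running number in each peak name, and positions here are by row. What either follows is not given in the sources used here, so positions are read only within a list. All 5 anti-GFP members stood in the first 50% of their list, against 61.2% of the anti-GFP peaks on the rest of chromosome 15 (197 of 322). Their median position was 16.7%, and that of the rest 39.3%. By the running number, as a percent of the highest on the chromosome, these medians were 5.03% and 12.4%. Of the anti-Myb members 3 stood in the first 50%, the last of them exactly at 50%, against 58.6% on the rest (89 of 152), and the medians were 50% and 42.9%. The earliest peak of each list in the domain, anti-GFP row 150 and anti-Myb row 352, was unshared. So were most peaks on the rest of chromosome 15, where 9.01% of anti-GFP and 19.1% of anti-Myb peaks were shared.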

How the data were processed

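CUT&RUN peak lists of 2 libraries were analysed. The submitters' processing notes name the build mm9 and, in no stated role, HOMER 4.10.3, deepTools 3.4.2, STAR 2.7.9a, Trim Galore 0.6.6, Picard 2.17.11 and SAMtools 1.11. How peaks were thresholded, which control was used and whether duplicates were removed is not given in the sources used here, and each would change which peaks are listed. In the deposited lists the score was a constant 1. The deposited positions gave anti-GFP peaks a fixed width of 337 bp and anti-Myb peaks one of 313 bp. Coordinates are printed 1-based.

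An overlap of at least 1 bp counted as shared. Distances, densities and row positions (row divided by list length) were computed in Python 3.11.15 (SciPy 1.17.1, pandas 2.3.3, NumPy 2.4.6), with overlap and distance code tested on simulated lists. No test was run, since each group had 1 library. The domain and the comparisons were chosen with earlier results of these data known. All member peaks are described; the naming rule took the nearest peaks to Myc, the overlapping pairs, the earliest and latest rows and the groups of neighbouring peaks. A planned motif search in the Myc and Pvt1 promoters was not run, and no sequence is printed.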

Additional observations from a re-analysis of the deposited data

How the results depend on the processing

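Over 12 alternatives to the overlap rule, borders, peaks counted, background, ordering and reference point, 51 of 56 values stayed close to those reported. Limits were 1.5 times for peak number, the counting interval for share or density, and 1 SD of the members for row position. Some could not move, so 51 is no measure of robustness. Domain counts and shares ignore the background, and neither a start moved 300 kb nor 10 kb merging removes a member. The other 5 moved. Without the last 300 kb of the domain 3 anti-GFP peaks remained, as the border then cuts the distal set. In the first 50% of each list 3 anti-Myb peaks remained and 0% of domain peaks were shared, as both anti-Myb partners stand just past the middle. Median anti-GFP position was -22.6 percentage points from the rest of chromosome 15 by row and -7.34 by the running number, a different scale. Within its wide interval, the anti-GFP density still turned from 0.660 to 1.07 times the background in the first 50%. The anti-Myb median position went from 7.05 points later than the background to 0.161 without the last 300 kb and 0.088 against chromosomes 1 to 19. With 50% of the shorter peak covered, or centres within 1 kb, each list kept 2 shared peaks. The rest went to 4.97% and 14.3% (anti-GFP) and 10.5% and 29.6% (anti-Myb). With centres within 10 kb the domain share was 60% against 21.1% for anti-GFP, but 40% against 42.1% for anti-Myb. The contrast with the rest thus depends on the rule. No paired analysis was possible with 1 library per group. Shares and densities of 5 peaks are imprecise, and without read depth an absent peak is only unlisted.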
